A study of Mus musculus with 30 samples.

Results

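Gas5 and the transcripts Snhg1, Snhg3, Snhg4, Snhg5, Snhg6, Snhg8, Snhg12 and Snhg15 are noncoding RNAs whose introns carry small nucleolar RNAs (snoRNAs). They were followed here across the blood-forming cells of mice with and without the m6A writer Mettl3. The members were chosen by gene name, with no threshold on any measured value. The list itself was drawn up with earlier results of these data known, so the p-values below describe the data and are not independent support for the choice. All 9 had a row among the 24063 genes of the bulk RNA-seq table, Snhg15 under its older name Gm11974, and all 9 were among the 15545 genes with enough counts to be tested. Of the 27933 genes of the single-cell table, 2 were members, Snhg6 and Snhg12. The other 7 members have no row in that table and were not analysed there.

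A snoRNA host gene is transcribed and spliced like a messenger RNA gene, and the snoRNAs are trimmed out of the excised introns. Box C/D snoRNAs guide methylation of the ribose and box H/ACA snoRNAs guide pseudouridylation, mostly of ribosomal RNA, so these genes stand close to ribosome production. The spliced host RNA that remains has short reading frames that ribosomes enter. In growing cells several such RNAs, Gas5 the best known, are degraded quickly by nonsense-mediated decay, and Gas5 (growth arrest-specific) got its name because its RNA builds up when growth stops. Many hosts start with a pyrimidine tract, the 5′ terminal oligopyrimidine motif that they share with ribosomal protein genes.

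The series compared bone marrow cells of mice carrying floxed Mettl3 (Mettl3 fl/fl, here WT) with those of Mx1-Cre; Mettl3 fl/fl mice (here Mettl3KO), both 3 weeks after pIpC. Mx1-Cre responds to the interferon that pIpC evokes and is not restricted to stem cells, and the WT mice have no Cre, so deletion of Mettl3 and presence of Cre cannot be told apart. Bulk libraries came from 4 sorted Lin-;Sca1+;c-Kit+ populations, parted by CD150 and CD48 into hematopoietic stem cells (HSC, positive for CD150 alone), MPP1 (negative for both), MPP2 (positive for both) and MPP4 (positive for CD48 alone), the last 3 being multipotent progenitors, with 3 libraries for each population and genotype (24 in all). Single-cell 10x libraries came from Lin-;c-Kit+ (LK) cells, 3 for each genotype, and per the labels the replicates of a group are different mice.

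The 8 members with a place in the GENCODE annotation of GRCm38 lie on 6 chromosomes. Snhg12 (chr4:132308623-132311024, plus strand) and Snhg3 (chr4:132348014-132353686, minus strand) are 36989 bases apart, and Gas5 (chr1:161034422-161038539, plus strand) and Snhg6 (chr1:9941959-9944118, minus strand) share a chromosome. The others are Snhg1 (chr19:8723475-8726443, plus), Snhg5 (chr9:88521050-88522929, minus), Snhg8 (chr3:123507552-123508404, minus) and Snhg15 (chr11:6525591-6528760, minus), while Snhg4 was not placed. Exons of Snhg3 overlap those of Rcc1 on the same strand, and exons of Snhg6 overlap those of Mcmdc2 on the opposite strand. Whether the counting used strand is not given in the sources used here, so counts of Snhg3 and Snhg6 are uncertain to that extent.

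The annotation puts 27 snoRNA genes inside these 8 hosts, with 8 in Gas5, 8 in Snhg1, 4 in Snhg12, 2 each in Snhg3 and Snhg5, and 1 each in Snhg6, Snhg8 and Snhg15. Gas5, Snhg1, Snhg5 and Snhg6 carry the box C/D kind among their named snoRNAs. Snhg3 (Snora73a and Snora73b), Snhg8 (Snora24) and Snhg15 (Snora9) carry box H/ACA snoRNAs, and Snhg12 carries both kinds. The following 4 box C/D snoRNAs show what the hosts' introns deliver. Capitals mark box C (TGATGA) and box D (CTGA), searched on the snoRNA's own strand, which flank the guide sequence.
Snord47 in Gas5, chr1:161038082-161038158, plus strand: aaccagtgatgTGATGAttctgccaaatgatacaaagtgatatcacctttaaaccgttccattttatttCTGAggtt
Snord50a in Snhg5, chr9:88521529-88521600, minus strand: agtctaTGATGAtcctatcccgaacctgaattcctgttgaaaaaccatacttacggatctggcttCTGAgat
Snord87 in Snhg6, chr1:9942463-9942549, minus strand: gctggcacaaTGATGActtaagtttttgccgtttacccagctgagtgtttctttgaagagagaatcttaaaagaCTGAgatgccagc
Snord99 in Snhg12, chr4:132310691-132310764, plus strand: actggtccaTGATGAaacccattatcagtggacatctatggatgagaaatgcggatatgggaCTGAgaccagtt

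The start regions are shown because the members moved together with ribosomal protein genes across libraries, as described further on. RefSeq's promoter table (GRCm38.p6) held 8 starts for 7 members, 2 of them for Gas5, and each line runs from 40 bases before to 25 bases from the start. Capitals mark the longest unbroken run of C and T that lies within 10 bases before and 20 bases after the start.
Gas5, chr1:161035126-161035190, plus strand: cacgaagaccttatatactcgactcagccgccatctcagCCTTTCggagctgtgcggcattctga
Snhg1, chr19:8723447-8723511, plus strand: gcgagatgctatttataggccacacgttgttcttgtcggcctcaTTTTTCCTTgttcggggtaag
Snhg5, chr9:88522873-88522937, minus strand: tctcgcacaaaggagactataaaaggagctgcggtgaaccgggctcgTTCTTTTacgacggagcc
Snhg8, chr3:123508312-123508376, minus strand: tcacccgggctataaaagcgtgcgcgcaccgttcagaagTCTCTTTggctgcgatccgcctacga
Snhg12, chr4:132308638-132308702, plus strand: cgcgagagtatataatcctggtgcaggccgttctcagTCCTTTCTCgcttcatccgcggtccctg
Snhg3, chr4:132353662-132353726, minus strand: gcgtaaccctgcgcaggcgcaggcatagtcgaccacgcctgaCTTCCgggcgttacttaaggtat
Snhg15, chr11:6528736-6528800, minus strand: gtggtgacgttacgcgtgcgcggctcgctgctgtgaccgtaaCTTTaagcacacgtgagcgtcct
Gas5, its other start, chr1:161034561-161034625, plus strand: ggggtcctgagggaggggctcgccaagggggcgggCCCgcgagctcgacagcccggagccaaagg

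A run of at least 6 pyrimidines stood at 5 of the 8 starts (the first 5 lines above), compared with 36.3% of all 32851 promoters in the table and 59.7% of 77 starts of ribosomal protein genes. The same 5 starts held the letters TATA on the sense strand within 40 to 15 bases before the start, against 5.91% of all promoters and 9.09% of the ribosomal protein starts. CACGTG, which reads the same on both strands, was found in the window from 250 bases before to 50 bases after the start only for Snhg15, compared with 7.15% of all promoters. These are descriptions of letters in a window.

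The bulk libraries held 28896498 to 55276836 counts, of which the 9 members made up 0.0243% to 0.0644%. Levels are given as CPM, the usual depth-normalised counts, with library sizes scaled by TMM. Mettl3 was at 29.6 to 42.6 CPM in the 12 WT libraries and at 11.6 to 22.4 CPM in the 12 Mettl3KO libraries, with no overlap within any population. Slamf1 (CD150) and Cd48 followed the sort in WT, at medians of 18.9 and 6.43 CPM in HSC, 2.80 and 21.4 CPM in MPP1, 7.07 and 143 CPM in MPP2, and 0.764 and 167 CPM in MPP4. In Mettl3KO their medians were 50.1 and 11.3 CPM in HSC, 3.11 and 18.3 in MPP1, 32.7 and 220 in MPP2, and 1.38 and 246 in MPP4. Flt3 and Cd34 had medians of 168.5 and 802 CPM in WT HSC and 10.5 and 314 CPM in Mettl3KO HSC. The part of such differences within a sort gate in the members' levels was not tested. Markers of neutrophils (7 genes, none at 0 in every library) summed to 67945 CPM in Mettl3KO replicate 2 of MPP1, against 104 to 4160 CPM in the other 5 MPP1 libraries. Erythroid markers (8 genes, none at 0 in every library) summed to 28.1 to 47.3 CPM in HSC, 54.5 to 171 CPM in MPP1, 98.9 to 194 CPM in MPP2 and 31.8 to 53.7 CPM in MPP4 of Mettl3KO, against 99.1 to 165, 124 to 515, 381 to 573 and 135 to 187 CPM in WT, and their part in the members' levels was not tested. In bulk libraries, fewer cells of a type and less RNA per cell cannot be told apart.

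Gas5 was by far the most abundant member, and Snhg12 the least abundant per exonic length. Gas5 supplied 53.0% to 72.7% of all member counts (median 61.0%). Per 1000 exonic bases it ranked first in 24 of 24 libraries, with a median level of 72.2 CPM per 1000 bases. Snhg8 and Snhg5 followed at 21.5 each, Snhg15 at 18.05, Snhg3 at 12.7, Snhg1 at 12.3 and Snhg6 at 12.2, and Snhg12 was last in 23 of 24 libraries at 5.48. Snhg4 has no annotated length here and is left out of that order. For Snhg1, Snhg8 and Snhg12 the annotated exons cover the whole gene span (2969, 853 and 2402 bases). For Snhg3 they cover 986 of 5673 bases and for Snhg15 1359 of 3170, so the order depends on which transcripts are annotated. Gas5 was also the steadiest member, with a 2.71-fold range over the 24 libraries, from 150.3 to 407 CPM. Snhg4 had the widest range, 7.45-fold from 3.55 to 26.5 CPM, followed by Snhg6 with 6.88-fold from 4.41 to 30.4 CPM.

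Among WT cells the members were lowest in HSC for 7 of 9 genes, all but Gas5 and Snhg8, whose lowest mean was in MPP2. The highest WT mean was in MPP4 for 5 members and in MPP1 for 4. The steps were small against the spread between libraries: 23 of the 27 neighbouring populations in these orders overlapped. Snhg4 gave the clearest order, from 10.4, 3.55 and 10.0 CPM in WT HSC (replicates 1, 2 and 3) through 11.8, 13.8 and 12.9 CPM in MPP1 and 15.96, 15.2 and 16.1 CPM in MPP2 to 20.3, 16.2 and 12.9 CPM in MPP4. The HSC, MPP1 and MPP2 libraries of Snhg4 did not overlap each other, while MPP4 overlapped both MPP1 and MPP2. Snhg15 was at 28.99, 29.7 and 29.3 CPM in WT MPP4 and at 22.0, 23.2 and 23.3 CPM in WT MPP1, without overlap. Snhg6 was likewise higher in WT MPP4 (16.99, 18.6 and 17.6 CPM) than in MPP2 (12.6, 13.7 and 12.2 CPM), the next population in its order.

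WT HSC were compared with each WT progenitor population in edgeR's quasi-likelihood test, with p-values adjusted by Benjamini-Hochberg over all genes tested. A gene is called when its adjusted p is under 0.05. The 3 comparisons share the same HSC libraries. Against MPP4, all 9 members had lower estimates in HSC (median log2 difference −0.64, against 0.04 over all genes tested) and 1 was called, Snhg4 (log2 −1.04 ± 0.34 SE, adjusted p = 0.048); 12% of all genes were called in this comparison, 6.65% lower. Snhg1, Snhg5, Snhg6 and Snhg15 were at −0.73, −0.56, −0.76 and −0.60 on the log2 scale and, like Snhg4, did not overlap between the 2 populations (5 of 9 members lower without overlap, against 21.3% of all genes). Against MPP2 no member was called (3.91% of all genes were, 2.51% lower), 1 member had an unadjusted p under 0.05 (20% of all genes) and DESeq2 called 0. That member was Snhg4, at −0.98 ± 0.34 SE (adjusted p = 0.104), and it alone did not overlap (18.3% of all genes were lower without overlap). Against MPP1 no member was called (0.0257% of all genes were, 0.0193% lower), none had an unadjusted p under 0.05 (6.76% of all genes) and DESeq2 called 0. The log2 differences ran from −0.88 for Snhg12 to −0.24 for Snhg15. Snhg4 and Snhg5 were lower in HSC than in MPP1 without overlap (2 of 9 members, against 7.63% of all genes lower and 7.19% higher). The count of calls against MPP4 was 0 when HSC replicate 2 or 3 or any 1 of the 3 MPP4 libraries was left out. Markers of other cells were lower in WT HSC too: 9 of 9 B cell and 6 of 7 T and NK cell markers were called lower against MPP4, and 8 of 9 and 3 of 7 against MPP2, and their part in the members' differences was not tested.

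**Figure D1:**
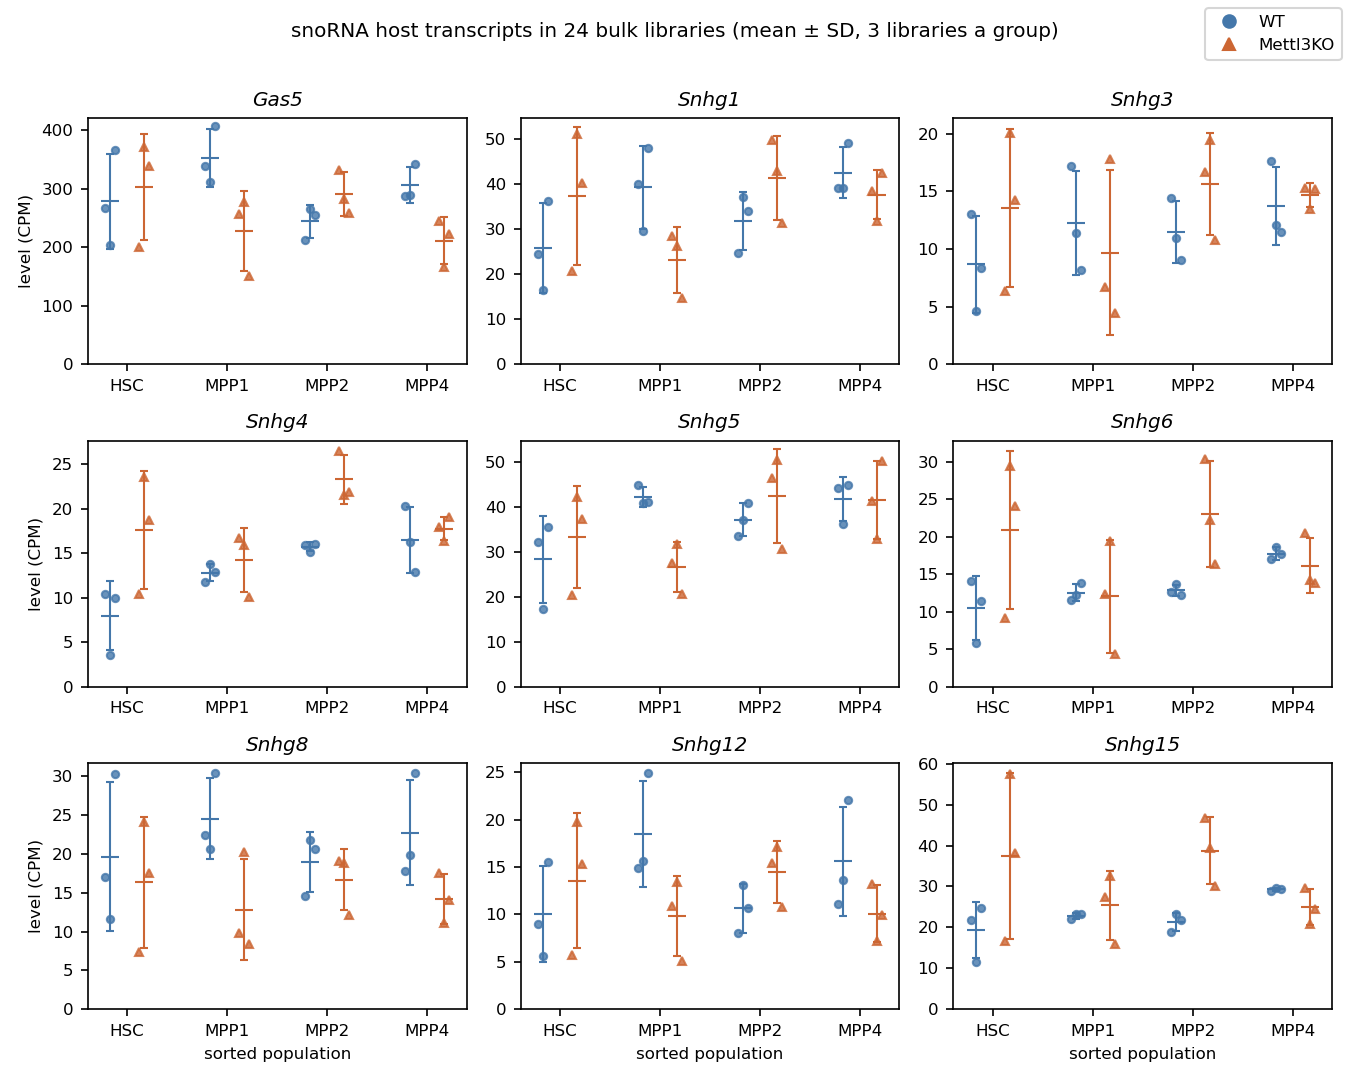
Level of each host (y axis, CPM, each panel with its own scale from 0) in the 4 sorted populations (x axis). Blue circles are WT libraries and orange triangles Mettl3KO libraries, 3 a group, with mean ± SD. Snhg4 in WT has its lowest mean in HSC (7.99 CPM) and its highest in MPP4 (16.5 CPM), and Mettl3KO groups of HSC and MPP1 spread widely for most members.

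In HSC, 8 of 9 members had higher estimates in Mettl3KO than in WT, and 1 passed the test, Snhg4. The median log2 fold change of the members was 0.54, against 0.0025 over all genes tested, and 6.15% of all genes were called (3.66% higher, 2.49% lower). DESeq2 called 1 member too, and 3 members had an unadjusted p under 0.05 (20.7% of all genes). Snhg4, at 10.4, 3.55 and 10.0 CPM in WT, was at 10.4, 23.5 and 18.8 CPM in Mettl3KO (17.6 ± 6.61 against 7.99 ± 3.85 CPM, mean ± SD, n = 3). Its groups did not overlap, but the lowest Mettl3KO library (10.449 CPM) and the highest WT library (10.428 CPM) nearly met. The log2 fold change was 1.14 ± 0.34 SE (95% interval 0.42 to 1.85, adjusted p = 0.0488). Snhg4 was the only member of the 9 without overlap in HSC, where 24% of all genes did not overlap (12.1% higher).

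Snhg15, the host of the box H/ACA snoRNA Snora9, was at 21.7, 11.6 and 24.7 CPM in WT HSC and at 16.7, 57.4 and 38.2 CPM in Mettl3KO HSC (log2 0.95 ± 0.34 SE, adjusted p = 0.109). Snhg6, the host of Snord87, was at 14.1, 5.79 and 11.5 CPM in WT and at 9.10, 29.4 and 24.1 CPM in Mettl3KO (1.00 ± 0.44 SE, adjusted p = 0.195). In both genes Mettl3KO replicates 2 and 3 lay above every WT library and replicate 1 lay within the WT range. Snhg3 (0.64), Snhg1 (0.54), Snhg12 (0.43), Snhg5 (0.23) and Gas5 (0.12) had smaller positive estimates, and Snhg8 had the negative one (−0.27), none of them past the test. Gas5 was at 266, 204 and 365 CPM in WT and at 200.05, 370.2 and 339 CPM in Mettl3KO, with full overlap.

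The Snhg4 call in HSC rests on single libraries. WT replicate 2 and Mettl3KO replicate 1 had the lowest level of their group for 9 of 9 members, and Mettl3KO replicate 2 the highest for 9 of 9. Without WT replicate 2 the Snhg4 estimate was 0.78 (adjusted p = 0.183), without WT replicate 3 it was 1.33 (0.0588), without Mettl3KO replicate 2 it was 0.88 (0.228) and without Mettl3KO replicate 3 it was 1.08 (0.14). Without Mettl3KO replicate 1, Snhg4 was at 1.40 (adjusted p = 0.0139) and Snhg15 was called as well, at 1.31 (adjusted p = 0.0105). Over its 13 alternative settings the adjusted p of Snhg4 ranged from 0.0139 to 0.228. Mettl3KO replicate 2 also had Rn45s at 5.49% of counts, against 1.77% to 2.60% in the other 5 HSC libraries, and neutrophil markers at 2086 CPM, against 30.3 and 79.9 CPM in the other Mettl3KO and 72.7 to 1554 CPM in the WT HSC libraries. Rn45s was likewise high in Mettl3KO replicate 2 of MPP1 (5.12%) and MPP2 (5.50%). Macrophage markers summed to 7.09 to 147 CPM in WT HSC and 2.97 to 18.02 CPM in Mettl3KO HSC, with 0 of 7 estimates positive and 1 called lower. The part of these differences in the members' levels was not tested.

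In MPP1, most members lay lower in Mettl3KO, the opposite direction to HSC, and none passed the test. The median log2 fold change was −0.63, against 0.0092 over all genes tested, and 7 of 9 estimates were negative. edgeR called 0 of 9 and DESeq2 called 0, while 8.63% of all genes were called (4.74% higher, 3.89% lower). At an unadjusted p under 0.05 there were 4 members, against 25.9% of all genes. Gas5, Snhg1, Snhg5, Snhg8 and Snhg12 were lower in every Mettl3KO library than in any WT library (5 of 9 members, against 12.2% of all genes lower and 10.1% higher). With 3 libraries against 3, the smallest two-sided p that an exact permutation test allows is 0.1.

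Gas5 was at 339, 311 and 407 CPM in WT MPP1 and at 256, 277 and 150.3 CPM in Mettl3KO MPP1 (log2 −0.63 ± 0.25 SE, adjusted p = 0.118). Snhg5 was at 44.8, 40.8 and 41.1 CPM in WT and at 27.4, 31.7 and 20.7 CPM in Mettl3KO (−0.67 ± 0.28 SE, adjusted p = 0.134). Snhg8 was at 22.4, 20.7 and 30.5 CPM in WT and at 9.79, 20.3 and 8.37 CPM in Mettl3KO (−0.94 ± 0.42 SE, adjusted p = 0.159). All of these separate fully, although Mettl3KO replicate 2 of Snhg8 comes within 1 CPM of a WT library.
Snhg1, which carries Snord22 and 7 further snoRNAs, was at 40.0, 29.6 and 48.1 CPM in WT and at 28.4, 26.3 and 14.7 CPM in Mettl3KO (−0.76 ± 0.33 SE, adjusted p = 0.144). Snhg12 was at 14.9, 15.7 and 24.95 CPM in WT and at 10.9, 13.4 and 5.11 CPM in Mettl3KO (−0.91 ± 0.46 SE, adjusted p = 0.212). Mettl3KO replicate 3 was the lowest library for 9 of 9 members. Snhg3 (−0.34), Snhg6 (−0.06), Snhg15 (0.15) and Snhg4 (0.15) overlapped between genotypes.

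MPP1 Mettl3KO replicate 2, the library with 67945 CPM of neutrophil markers, had the highest level of its group for 7 of 9 members. Without it Snhg8 passed the test, at −1.42 (adjusted p = 0.0447), and Gas5 was at −0.78 (0.0692), Snhg5 at −0.79 (0.0961) and Snhg6 at −0.57 (0.419). Without Mettl3KO replicate 3 the same genes were at −0.71, −0.40, −0.52 and 0.34. Markers of B cells (9 with a row, none at 0 in every library) summed to 44.4 to 52.1 CPM in WT MPP1 and to 158 to 174 CPM in Mettl3KO MPP1, and 7 of 9 passed the test. Of 7 T and NK cell markers 2 were called higher, and of 7 macrophage markers 1 was called lower. The part of these markers' cells in the members' levels was not tested.

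In MPP2, 8 of 9 members again had higher estimates in Mettl3KO, Snhg8 being the exception, and none passed the test. The median log2 fold change was 0.44, against −0.018 over all genes tested. edgeR and DESeq2 each called 0 of 9, where edgeR called 2.47% of all genes (1.51% higher), and 1 member had an unadjusted p under 0.05 (16.1% of all genes). Snhg15 was at 18.9, 23.3 and 21.9 CPM in WT and at 46.7, 39.5 and 30.2 CPM in Mettl3KO (0.86 ± 0.34 SE, adjusted p = 0.205). Snhg6 was at 12.6, 13.7 and 12.2 CPM in WT and at 30.4, 22.2 and 16.3 CPM in Mettl3KO (0.84 ± 0.44 SE, adjusted p = 0.358). Snhg4 was at 15.96, 15.2 and 16.1 CPM in WT and at 26.5, 21.5 and 21.9 CPM in Mettl3KO (0.57 ± 0.33 SE, adjusted p = 0.431). These 3 of 9 members were higher without overlap, as were 13% of all genes. The other 6 overlapped, from Snhg3 and Snhg12 (0.44 each) through Snhg1 (0.37), Gas5 (0.26) and Snhg5 (0.19) to Snhg8 (−0.19). Macrophage markers had no positive estimate in MPP2 (0 of 7, median −4.09, 1 called lower, sums of 235 to 5548 CPM in WT and 219.5 to 679 CPM in Mettl3KO), and B cell markers had a median of 1.34 (1 of 9 called higher, 220.4 to 249.9 CPM against 306 to 415 CPM); their part was not tested.

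In MPP4, the members differed least, with a median log2 fold change of −0.18 against −0.012 over all genes tested. As in MPP1, 2 of 9 estimates were positive. edgeR and DESeq2 each called 0 of 9, where edgeR called 3.13% of all genes, and 1 member, Gas5, had an unadjusted p under 0.05 (16% of all genes). Gas5 was at 286, 289 and 342 CPM in WT and at 245, 167 and 222 CPM in Mettl3KO (−0.54 ± 0.25 SE, adjusted p = 0.294). Snhg8 was at 17.9, 19.9 and 30.5 CPM in WT and at 17.5, 11.1 and 14.0 CPM in Mettl3KO (−0.68 ± 0.42 SE, adjusted p = 0.451). These 2 were lower without overlap, as were 14.4% of all genes. Snhg12 was at −0.63 and the remaining 6 lay between −0.23 (Snhg15) and 0.11 (Snhg4). B cell markers summed to 678 to 1187 CPM in WT MPP4 and to 2221 to 5011 CPM in Mettl3KO MPP4 (5 of 9 called higher), and 1 of 7 macrophage markers was called lower; their part was not tested.

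**Figure D2:**
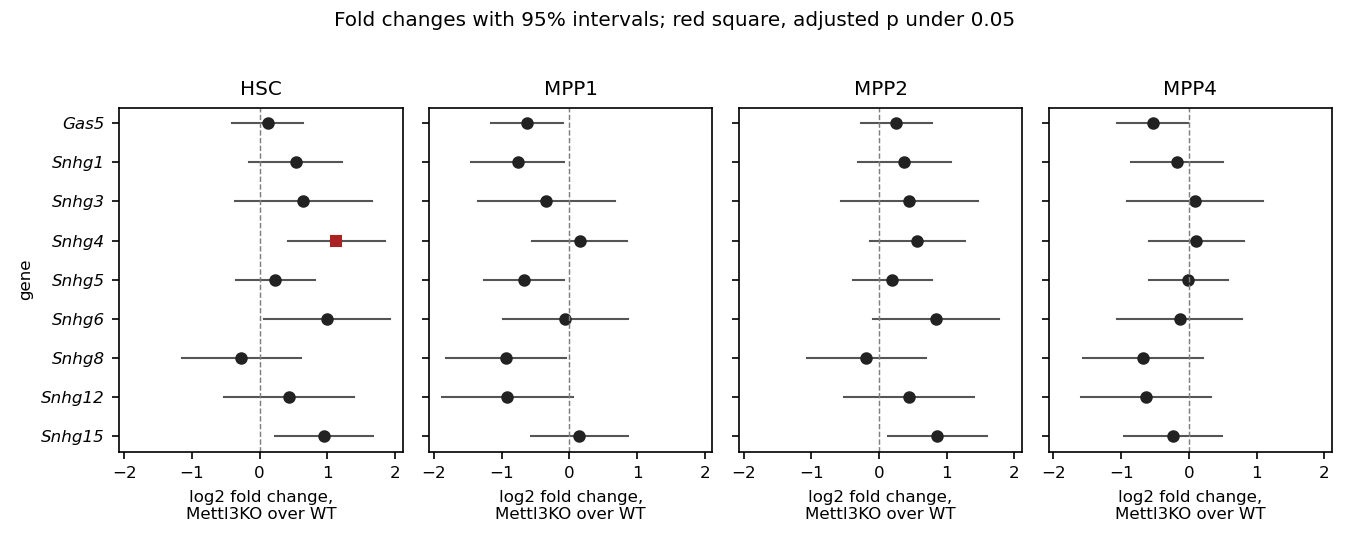
Log2 fold change of each host, Mettl3KO over WT (x axis), in each sorted population, with 95% intervals from edgeR's quasi-likelihood fit. The red square marks the 1 call, Snhg4 in HSC at 1.14. Estimates lean right of 0 in HSC and MPP2 (8 of 9 positive in each) and left of 0 in MPP1 and MPP4 (2 of 9 positive in each).

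Whether the Mettl3KO effect differed between HSC and a progenitor population was tested as an interaction in the same fit, and these tests share the HSC libraries. Against MPP1, all 9 differences were positive, meaning a higher fold change in HSC, from 0.67 for Snhg8 to 1.35 for Snhg12 with a median of 0.98 (−0.0063 over all genes tested). The smallest p was that of Snhg1, with a difference of 1.30 ± 0.46 SE (adjusted p = 0.4), and 5 members had an unadjusted p under 0.05, against 10.3% of all genes. edgeR called 0 of 9 and DESeq2 0, where edgeR called 0.0386% of all genes (0.0322% lower). Against MPP4, the largest difference was that of Snhg15 (1.19 ± 0.48 SE, adjusted p = 0.225), followed by Snhg6 (1.13), Snhg12 (1.07) and Snhg4 (1.03, adjusted p = 0.29). There 2 members had an unadjusted p under 0.05 (15.8% of all genes), and edgeR and DESeq2 each called 0, where edgeR called 1.55% of all genes (0.939% higher). Without HSC Mettl3KO replicate 1, Snhg15 passed the test against MPP4. Against MPP2 the differences ran from −0.13 (Gas5) to 0.57 (Snhg4), and edgeR called 0, with 0 at an unadjusted p under 0.05 (3.58% of all genes) and 0 by DESeq2 (0.00643% of all genes called by edgeR).

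The members moved together from library to library, and they did so with ribosomal protein genes. Over the 24 libraries the 36 pairs of members had a median Pearson correlation of 0.71 on log2 CPM, from 0.19 for Snhg4 with Snhg8 to 0.91 for Snhg6 with Snhg15. After subtracting group means the median was 0.81. The mean of the 9 standardised levels had a correlation of 0.95 with the log2 share of counts taken by 85 ribosomal protein genes, and of 0.97 after subtracting group means. Single members ranged from 0.69 (Snhg4) to 0.93 (Snhg1). The 24 points differ in depth and share a sorting and amplification procedure, so these values are descriptions. Genes shorter than 1000 exonic bases (3013 genes, 0.702% to 5.35% of counts) tracked the members less closely (0.67, and 0.76 after subtracting group means), as did the ribosomal RNA precursor Rn45s (0.36). The share of 5.35% was in MPP1 Mettl3KO replicate 2, the library rich in neutrophil markers. The next highest was 2.00% in WT replicate 3 of MPP4, and the effect of that 1 library on the correlation was not tested.

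Ribosomal protein genes took 2.07%, 1.08% and 2.33% of counts in WT HSC and 1.46%, 2.87% and 2.62% in Mettl3KO HSC, with the lowest values in the same 2 libraries where all members were lowest. In MPP1 they took 2.32%, 2.32% and 2.76% in WT and 1.71%, 1.98% and 0.913% in Mettl3KO. In MPP2 the shares were 2.10%, 2.38% and 2.02% in WT and 3.13%, 2.91% and 2.12% in Mettl3KO, and in MPP4 2.88%, 2.56% and 2.85% against 2.72%, 2.06% and 2.21%. The share was thus lower in every Mettl3KO library than in any WT library of MPP1, and overlapped between genotypes in the other 3 populations.

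Of 10754 genes with a mean of at least 5 CPM, those whose profile over the 24 libraries was most like the members' mean included Rpl10a (r = 0.97), Rpl23, Rpl36, Mir682, Rps24, Rpl19, Atp6v1f, Rps4x and Rpl9 (r = 0.96). Of these 9 genes, 7 encode ribosomal proteins. Atp6v1f encodes a subunit of the vacuolar proton pump.

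**Figure D3:**
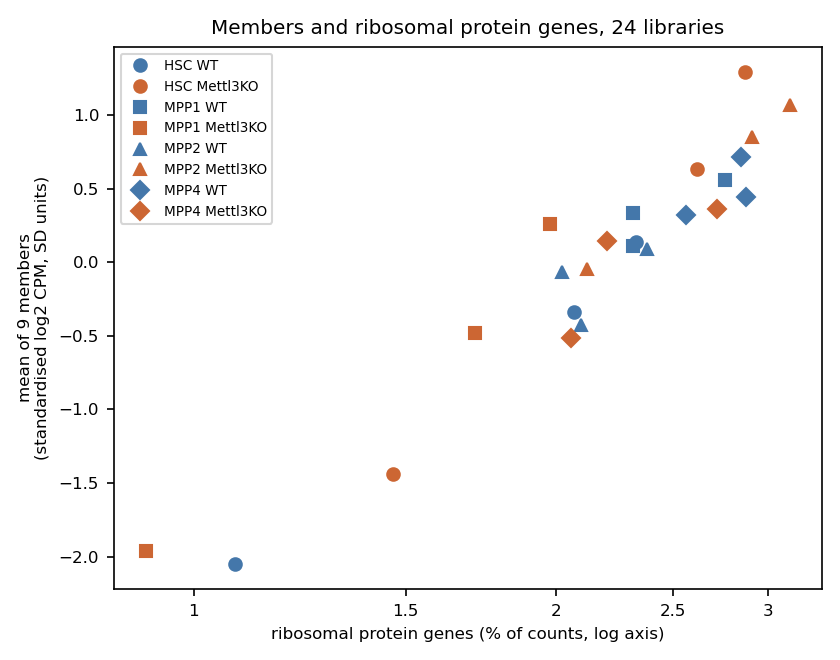
Each of the 24 bulk libraries by its share of counts in 85 ribosomal protein genes (x axis, %, log scale) and the mean of the 9 members (y axis, mean of standardised log2 CPM, in SD units). Colour gives the genotype and shape the population. The libraries fall along one line (r = 0.95), with Mettl3KO replicate 3 of MPP1 (0.913%) and WT replicate 2 of HSC (1.08%) at the lower end.

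With the log2 ribosomal protein share added to the edgeR model as a covariate, a choice made after seeing the data, the picture in MPP1 changed. The slope on the share was called for 9 of 9 members, from 0.78 for Gas5 to 1.47 for Snhg6 (23.9% of all genes had a called slope). These slopes restate the correlation already seen in the same libraries and are not separate support for it. In HSC, Snhg4 was again called, at 0.85 ± 0.23 SE (adjusted p = 0.0247, 8.61% of all genes called). In MPP1, Snhg15 at 0.92 ± 0.19 SE (adjusted p = 0.00497), Snhg6 at 0.83 ± 0.23 SE (0.0251) and Snhg4 at 0.82 ± 0.26 SE (0.0485) were called higher in Mettl3KO, where 11.6% of all genes were called. Gas5, Snhg1, Snhg5, Snhg8 and Snhg12 lay between −0.08 and 0.06 in MPP1 under that model. In MPP2 (4.13% of all genes called) and MPP4 (4.82%) no member was called. The largest estimates in MPP2 were Snhg8 at −0.59 (adjusted p = 0.223) and Snhg15 at 0.50 (0.107). In MPP4 they were Snhg3 at 0.43 (0.558), Snhg8 at −0.39 (0.439), Snhg4 at 0.35 (0.423) and Gas5 at −0.35 (0.112). The share is itself measured on the same libraries and differs between genotypes in MPP1, so its part and that of the genotype cannot be told apart there.

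The balance among the hosts was then read from the log2 ratio of each member to the geometric mean of all 9 in the same library, a measure chosen after the levels had been seen and therefore given with no test. Snhg8 stood lower in Mettl3KO in all 4 populations without overlap, by 0.82 in HSC, 0.50 in MPP1, 0.60 in MPP2 and 0.42 in MPP4 on the log2 scale. Its ratios in HSC were −0.38, −0.02 and 0.23 in WT and −1.02, −0.75 and −0.86 in Mettl3KO. In MPP2 they were −0.58, −0.26 and −0.24 in WT and −0.97, −0.88 and −1.04 in Mettl3KO. The gap is wide in HSC and MPP2 and close to nothing in MPP4, where the lowest WT library and the highest Mettl3KO library are both at −0.73. Of all genes tested, 0.708% (110 genes) were lower in this way in 4 of 4 populations. For genes outside the 9, the ratio also carries any shift of the members' mean between genotypes, whose direction varied by population. In HSC 9.73% of all genes were lower and 2.94% higher in this ratio, and in MPP1 3.83% and 21.3%. The share of 0.708% is therefore not a like measure for a member and does not show how unusual Snhg8 is.

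Snhg15 stood higher in Mettl3KO relative to the other hosts in 3 of 4 populations, by 0.35 in HSC, 0.62 in MPP1 and 0.44 in MPP2 (1.56% of all genes did so in at least 3). In MPP1 its ratios were −0.35, −0.16 and −0.37 in WT and 0.38, 0.21 and 0.38 in Mettl3KO. The WT and Mettl3KO libraries of Snhg15 are clearly apart in those 3 populations and mixed in MPP4 (difference −0.0062). Snhg4 stood higher by 0.71 in HSC and 0.65 in MPP1, Snhg6 by 0.39 in MPP2, and Gas5 and Snhg12 lower by 0.31 in MPP4 and 0.45 in MPP1, all without overlap. Of all genes, 2.94% in HSC, 21.3% in MPP1 and 3.55% in MPP2 stood higher in this way, 7.4% in MPP4 and 3.83% in MPP1 lower, and 9.35% higher in at least 2 populations. These shares, and the 1.56% given for Snhg15, carry the shift of the members' mean as well and are not like measures for a member. Snhg1, Snhg3 and Snhg5 overlapped in 4 of 4 populations. The 9 ratios of a library sum to 0, so a member that is higher makes the others lower.

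**Figure D4:**
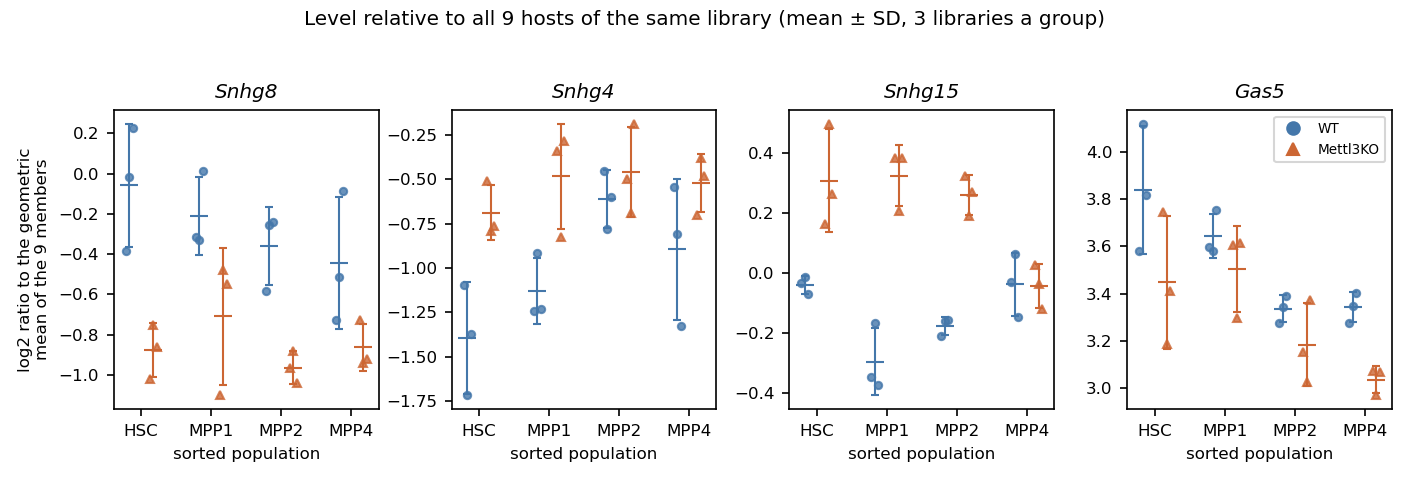
Log2 ratio of Snhg8, Snhg4, Snhg15 and Gas5 to the geometric mean of the 9 members in the same library (y axis, each panel with its own scale), by population (x axis). Points are libraries (blue circles WT, orange triangles Mettl3KO) with mean ± SD of 3. Snhg8 is lower in Mettl3KO in all 4 populations (by 0.42 to 0.82) and Snhg15 higher in 3.

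Of the snoRNAs inside the members, 8 had a row in the bulk table and 7 of them passed the filter. The libraries were made from polyA RNA, and a snoRNA row can also hold reads of unspliced or retained host introns. No snoRNA was called by edgeR in any of the 4 comparisons of Mettl3KO with WT. Snord47, the most counted one (109 to 467 counts a library), was lower without overlap in Mettl3KO HSC (log2 −0.84 ± 0.38 SE, adjusted p = 0.214) and MPP1 (−0.80 ± 0.38 SE, adjusted p = 0.192), as were 12% and 12.2% of all genes. Its host Gas5 was at 0.12 and −0.63 in those comparisons. Over the 24 libraries Snord47 had a correlation of 0.72 with Gas5, Snora24 of 0.79 with Snhg8, and Snord87 of 0.022 with Snhg6 at a median of 23.5 counts. Snord22 was at 0.51 with Snhg1. With Snhg12, Snord99 was at 0.70, Snora61 at 0.30, Snora16a at 0.17 and Snora44 at 0.076. All but Snord87 overlap an annotated exon of their host, and whether the same reads entered both rows was not tested.

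Other genes of the pathway were taken from lists drawn up with earlier results known. Of 12 other noncoding snoRNA hosts, 10 were tested and none was called in any population by edgeR, with medians of 0.75 in HSC, −0.21 in MPP1, 0.62 in MPP2 and −0.34 in MPP4 and 4, 0, 4 and 1 genes at an unadjusted p under 0.05 (not repeated with DESeq2). Snhg20 came nearest, at 1.75 ± 0.53 SE in HSC (adjusted p = 0.0541), followed by Snhg7 at 1.10 and Zfas1 at 0.96. Of 24 protein-coding hosts, 22, 5, 21 and 6 had positive estimates in HSC, MPP1, MPP2 and MPP4. Ncl, which encodes the nucleolar protein nucleolin and hosts snoRNAs, was called higher in all 4 populations, with log2 fold changes of 0.99 ± 0.13 SE, 0.79 ± 0.13 SE, 0.89 ± 0.13 SE and 0.49 ± 0.13 SE (adjusted p from 9.24e-05 to 0.0374). In MPP1, where Ncl was higher, 7 of the 9 members had negative estimates that did not pass the test. Eif4a2, a translation initiation factor gene, was called lower in MPP1 (−0.53 ± 0.16 SE, adjusted p = 0.0455).

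Among 8 core proteins of the snoRNA particles, Nop58, a box C/D core protein, was called lower in MPP1 (−0.65 ± 0.15 SE, adjusted p = 0.0102, 1 of 8 against 3.89% of all genes lower) and no other call was made in the 4 populations. Among 11 assembly factors, Shq1 (1.12 ± 0.25 SE, adjusted p = 0.00825), a chaperone of the H/ACA enzyme dyskerin, and Nolc1 (0.42 ± 0.12 SE, adjusted p = 0.0388), the nucleolar phosphoprotein Nopp140, were called higher in HSC (2 of 11, against 3.66% of all genes). Of 14 factors of nonsense-mediated decay, edgeR called 0 in each population, with 0, 3, 0 and 2 at an unadjusted p under 0.05 in HSC, MPP1, MPP2 and MPP4 (not repeated with DESeq2). Their median correlation with the members' mean over the 24 libraries was −0.19, with single factors from −0.83 to 0.84. The median was 0.89 for the 24 protein-coding hosts (−0.50 to 0.95) and 0.67 for 7 other noncoding hosts (0.32 to 0.91). It was 0.61 for the core proteins (0.37 to 0.84) and 0.49 for the assembly factors (0.089 to 0.74).

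In the 10x libraries, 24396 of 24693 cells were kept (4483, 3514 and 4348 WT cells, 4239, 2946 and 4866 Mettl3KO cells), 303 barcodes occurred in more than 1 library, and levels are CPM computed in the same way from UMI counts summed per library. Over all LK cells Snhg6 was at 94.9, 98.1 and 73.8 in WT and at 103, 101 and 103 in Mettl3KO (log2 0.20 ± 0.10 SE, adjusted p = 0.195). The groups did not overlap, which held for 41.5% of all genes (22% higher). Snhg12 was at 18.9, 22.0 and 17.3 in WT and at 20.2, 21.4 and 22.9 in Mettl3KO (0.15 ± 0.10 SE, adjusted p = 0.32), with overlap. edgeR called neither of the 2 members, 0 were at an unadjusted p under 0.05, and DESeq2 called 0, while edgeR called 22.4% of all genes. The low WT value of Snhg6 came from WT replicate 3, where 24.2% of cells were neutrophil-like against 0.288% to 2.19% in the other 5 libraries. Neutrophil-like cells had Snhg6 at 23.3 to 26.8 CPM without TMM scaling. Without those cells the Snhg6 difference was 0.18 (adjusted p = 0.172), and without WT replicate 3 it was 0.08 (0.399). With those cells removed and no TMM scaling, Snhg6 was at 94.6, 95.8 and 78.1 CPM in WT replicates 1, 2 and 3. Replicate 3 also had the lowest WT level of Snhg6 in every class tested below. Its median UMIs per cell were the lowest, 5945 against 7503 to 10490 in the other 5 libraries, and the part of depth was not tested. B cell-like cells numbered 307, 124 and 177 in WT and 710, 892 and 1196 in Mettl3KO. Over all LK cells 9 of 9 B cell markers were called higher and 8 of 8 erythroid markers lower (13.7% and 8.72% of all genes), and their part in the level of the members was not tested.

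Cells were clustered without the members, and clusters were named from marker lists. Tests were run in the 10 classes that had 50 or more cells in each of the 6 libraries. In WT, Snhg6 was highest in early erythroid-biased-like cells (109 ± 8.42 CPM, SD, n = 3, without TMM scaling) and eosinophil-like cells (101 ± 9.64), and of these 10 classes lowest in B cell-like cells (64.9 ± 16.7). All neighbours in that WT order of 10 classes overlapped. Neutrophil-like cells, which were not among them, were lower, with Snhg6 at 26.8 and 23.3 CPM in the 2 WT libraries that had 50 or more such cells. Snhg12 was highest in lymphoid-primed-like cells (29.3 ± 7.38) and of the 10 classes lowest in granulocyte progenitor-like (13.3 ± 0.988) and dendritic cell-like cells (11.3 ± 3.09). Neutrophil-like cells had Snhg12 at 0 and 4.30 CPM in those 2 WT libraries, from 0 and 22 UMIs. Only basophil or mast cell-like and granulocyte progenitor-like cells, next to each other in the WT order of Snhg12, did not overlap.

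Within classes, Snhg6 was called higher in Mettl3KO in those named megakaryocyte progenitor-like and early erythroid-biased-like. In both, the WT and the Mettl3KO cells came mostly from different clusters, so each comparison sets one cluster against another. In megakaryocyte progenitor-like cells it was at 93.7, 87.8 and 67.8 in WT and at 125, 148 and 129 in Mettl3KO (TMM scale, log2 0.67 ± 0.12 SE, adjusted p = 0.000313), where 32.3% of all genes were called (17.2% higher). The groups were wide apart, and the call held without any 1 of the 6 libraries (adjusted p from 0.000265 to 0.00217 over 9 alternatives). In early erythroid-biased-like cells it was at 124, 116 and 105 in WT and at 128, 148 and 154 in Mettl3KO (0.31 ± 0.12 SE, adjusted p = 0.0362), where 41.8% of all genes were called (22.1% higher). DESeq2 did not call it (adjusted p = 0.115), and the edgeR call was lost without WT replicate 2 (0.30, adjusted p = 0.0906), WT replicate 3 (0.23, 0.149), Mettl3KO replicate 2 (0.29, 0.0723) or Mettl3KO replicate 3 (0.26, 0.142).

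The megakaryocyte progenitor-like class joined cluster 9, with 464, 195 and 435 Mettl3KO and 2, 0 and 0 WT cells, and cluster 16, with 18, 14 and 20 Mettl3KO and 160, 158 and 191 WT cells. The early erythroid-biased-like class joined cluster 14, mostly WT, and cluster 15, with 276, 143 and 174 Mettl3KO and 1, 2 and 0 WT cells. The names of both Mettl3KO clusters are weakly founded, since 1 of the 10 leading genes was a marker of the class in each (Itga2b in cluster 9, Muc13 in cluster 15). Cluster 15 also had 1 HSC/MPP marker, Mecom, among its 10 leading genes, and shared Serpina3g, Myct1, Selp, Gimap1 and Mecom with those of the HSC/MPP-like cluster. A change within a cell type and a different make-up of the class cannot be told apart. At the coarser Leiden resolution of 0.5 neither class was named, so the differences could not be recomputed there. That resolution had an HSC/MPP-like cluster of 1652, 623 and 1324 Mettl3KO and 8, 8 and 6 WT cells, with Serpina3g, Gng11, Fam212a, Gp5 and F2r among its 10 leading genes.

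In the other 8 classes edgeR and DESeq2 called neither member. For Snhg6 the log2 differences ran from −0.22 in dendritic cell-like to 0.31 in eosinophil-like cells (adjusted p = 0.174, 1.84% of all genes called), and its groups did not overlap in eosinophil-like (110.3, 108 and 90.2 against 119.8, 134 and 134) and granulocyte progenitor-like cells (0.29, adjusted p = 0.255), where 19.8% and 19.2% of all genes did not overlap. Snhg12 came nearest to a call in erythroid progenitor-like cells, at 23.2, 24.9 and 16.3 in WT and 26.8, 29.4 and 30.3 in Mettl3KO (0.41 ± 0.14 SE, adjusted p = 0.0923, 6.18% of all genes called). Its groups did not overlap there or in granulocyte progenitor-like cells (0.25, adjusted p = 0.478), against 27.3% and 19.2% of all genes. In dendritic cell-like cells Snhg12 had too few UMIs to be tested. HSC/MPP-like cells formed 1 cluster, with 4, 7 and 5 WT cells and 906, 277 and 701 Mettl3KO cells, and were not tested. In the Mettl3KO cells of that cluster Snhg6 was at 135, 145 and 136 and Snhg12 at 31.9, 31.6 and 37.5 CPM without TMM scaling, the highest Snhg12 mean of the 11 Mettl3KO classes with enough cells.

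**Figure D5:**
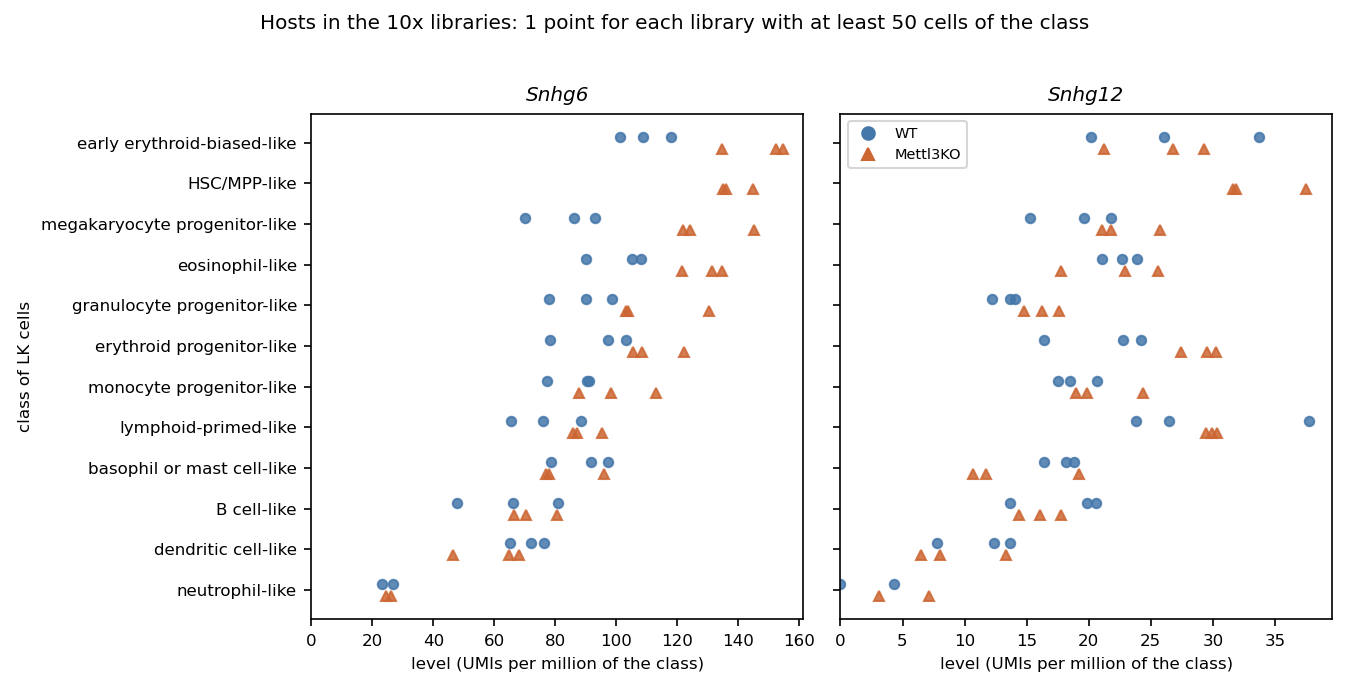
Level of Snhg6 (left) and Snhg12 (right) in classes of LK cells (x axis, CPM of the class without TMM scaling). Each point is 1 library with at least 50 cells of the class, WT as blue circles and Mettl3KO as orange triangles. In megakaryocyte progenitor-like cells the Snhg6 points of the 2 genotypes are apart, HSC/MPP-like cells have no WT point, and neutrophil-like cells are lowest for Snhg6. For Snhg12 neutrophil-like and dendritic cell-like points overlap (7.10 and 6.49 CPM in Mettl3KO replicate 2, from 3 and 4 UMIs).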

How the data were processed

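Bulk RNA was amplified from polyA RNA with a SMARTer method and sequenced as paired 50 bp reads, per the labels. The deposited bulk table is named as FPKM, but all its values were whole numbers and library totals were unequal, so they were used as counts that the authors had not normalized. The deposited 10x table held UMI counts per gene and cell. The submitters' processing notes name Bowtie, TopHat, Cell Ranger 2.2, mm10 and GRCh37. The sources used here do not name the counting tool or annotation and do not say whether strand was used.

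Bulk counts were tested with edgeR 4.0.16 in R 4.3.3 (filterByExpr, TMM, glmQLFit and glmQLFTest, 1 mean for each of 8 groups, 16 residual degrees of freedom), with Benjamini-Hochberg adjustment over 15545 genes and calls at an adjusted p under 0.05. A filter removed the 297 cells in which more than 10% of UMIs were mitochondrial, no doublet caller was run, and no doublets were removed. Cells were clustered in scanpy 1.11.5 (1999 variable genes without the members, mitochondrial genes, Xist, Tsix and Mettl3, 30 principal components, 20 neighbours, Leiden resolution 1 with leidenalg 0.10.2) under Python 3.11.15. UMI counts were summed per library and class and tested in the same way. Depth was 28546967 to 44159208 UMIs a 10x library. Bulk reads have no molecular identifiers, so they are not independent molecules. Bulk standard errors and intervals rest on a spread per gene pooled over the 8 groups, not on that of the 2 groups compared. Snhg15 had an SE of 0.34 in both HSC and MPP4, although its Mettl3KO SD was 20.4 CPM in HSC and 4.45 CPM in MPP4. Intervals can therefore be too narrow where a group spreads widely.

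The members and all gene lists were chosen with earlier results of these data known. The text names the 9 members in every population, up to 4 genes of each other list with the smallest adjusted p, the 10 genes most like the members' mean (1 of them is not reported here), and snoRNAs inside a member with a row in the bulk table; other names were chosen after their values were seen. Snhg15 was found through RefSeq synonyms. Places are from GENCODE vM21 (GRCm38) and start sequences from RefSeq (GRCm38.p6). WT libraries of different populations with the same replicate number deviated together (correlation of deviations 0.13 to 0.45 in every pair), so by these data the numbers pair the WT populations, and the blocked fit changed no WT call. Mettl3KO libraries of the same number did not deviate together in every pair (−0.25 to 0.47). Replicate 2 of Mettl3KO HSC, MPP1 and MPP2 did (0.38 to 0.47), with Rn45s at 5.49%, 5.12% and 5.50% of counts. Whether 1 mouse gave several of these libraries is not stated in the sources used here. The tests were checked on simulated data. Alternatives were DESeq2 1.42.0, other size factors, other count filters, fewer libraries, a replicate block, leaving out each library, another clustering resolution and no mitochondrial filter; the ribosomal protein covariate and the removal of neutrophil-like cells were added after seeing the data.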

Additional observations from a re-analysis of the deposited data

How the results depend on the processing

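Of the counts of called members per comparison, 224 were the same and 25 moved under an alternative. Of the single-gene results 659 were counted as the same, 14 lost their call, 4 gained one and 1 turned direction with a call. A change of sign with no call in either fit was counted as the same. Such changes occurred for Snhg8 in HSC (−0.75 to 0.19 over its alternatives) and Snhg3 in MPP1 (−1.11 to 0.41), among others. In HSC the count of 1 became 0 with DESeq2-type size factors (Snhg4 1.10, adjusted p = 0.0563), with no low-count filter (1.15, 0.0638) and with only the 6 HSC libraries (1.145, 0.22), and it ranged from 0 to 2 when 1 library was left out. For WT HSC against WT MPP4 the count of 1 became 0 with no low-count filter and with only the 6 libraries, and ranged from 0 to 1 with 1 library left out. Leaving out 1 library gave 0 to 1 in MPP1, 0 to 1 for the effect in HSC against that in MPP4, and 0 to 1 in early erythroid-biased-like cells, where DESeq2 gave 0 (0.31, adjusted p = 0.115). With the ribosomal protein share as a covariate, an alternative chosen after seeing the data, MPP1 had 3 calls: Snhg4 at 0.82, Snhg15 at 0.92, and Snhg6, which turned from −0.06 to 0.83. The cause of these changes was not tested, except that no filter tests more genes and the smaller fits use fewer libraries.

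With the replicate number as a block the HSC count was 0 (Snhg4 1.16, adjusted p = 0.0614) and the count in early erythroid-biased-like cells was 0 (Snhg6 0.30, adjusted p = 0.0512), and the block changed no other count. WT and Mettl3KO libraries of the same number share only a number (correlation of deviations −0.37 to 0.093). The block of genotype and replicate number left every count of the comparisons between populations as it was.

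Over 3 libraries a group, standard errors of 0.25 to 0.48 on the log2 scale limit what the bulk data can show: the 95% interval for Gas5 in HSC, −0.40 to 0.65, spans changes in both directions. For the single-cell classes, the smallest had 53 cells in a library and 3 to 7 UMIs of Snhg12 there.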
